A study of Mus musculus with 24 samples.

Results

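The transcripts described here are those of 10 genes that the transcription factor p53 activates and whose products take part in cell death: Bbc3, Pmaip1, Bax, Apaf1, Fas, Tnfrsf10b, Eda2r, Perp, Trp53inp1 and Aen. They were taken by name from the 55471 genes counted in each library, and all 10 were found. The libraries were made from polyadenylated RNA of mouse embryos, and each library is a separate pool of 10 embryos. The strain label is that of the hybrid B6D2F1, but it runs up in number across the Zfp622 KO libraries. Zygotes of the knockout (KO) groups had received Cas9 protein with 3 guide RNAs against 1 gene. The groups are Ttf1 KO morulae, Zfp622 KO morulae and wild-type (WT) morulae, and Ttf1 KO, Zfp622 KO and WT embryos at the late 2-cell stage (L2C), with 4 libraries in each of the 6 groups. Ttf1 encodes a termination factor of RNA polymerase I, and Zfp622 a zinc finger protein whose counterpart in yeast helps large ribosomal subunits to mature. WT libraries are titled NC without an explanation, and whether WT zygotes were injected is not stated. An embryo injected with Cas9 can carry several alleles and uncut cells, so a KO pool is not a uniform genotype.

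p53 is held at a low level by Mdm2, an enzyme that marks it for destruction, and stresses such as DNA damage or faulty ribosome assembly free it to switch on its target genes. In the intrinsic pathway of cell death the small proteins Bbc3 (PUMA) and Pmaip1 (NOXA) bind the protectors of the Bcl2 family, Bax makes pores in mitochondria, and Apaf1 builds the apoptosome that activates caspase 9. In the extrinsic pathway, receptors such as Fas and Tnfrsf10b at the cell surface recruit caspase 8. In the mouse, most embryos without p53 develop to term.

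Total counts per library ran from 12690369 to 17807596 at morula and from 10538723 to 13528954 at L2C. Levels are counts per 1000000 (CPM) scaled within a stage, errors are SD over 4 libraries, tests are edgeR quasi-likelihood tests on all genes, and a gene was called at an adjusted p of at most 0.05. The targeted transcripts were lower in their own KO. Ttf1 stood at 25.4 ± 1.46 CPM in Ttf1 KO morulae and 43.1 ± 1.5 in WT morulae, and at 33.2 ± 4.67 in Ttf1 KO L2C and 90.6 ± 5.25 in WT L2C. Zfp622 stood at 15.1 ± 6.16 CPM in Zfp622 KO morulae and 52.1 ± 4.84 in WT morulae, and at 73.9 ± 22.8 in Zfp622 KO L2C and 197.8 ± 9.45 in WT L2C. The 8 morula markers summed to between 617 and 1304 CPM in morula libraries and between 118 and 163 CPM in L2C libraries, which separated the libraries by their stage label. All Ttf1 KO libraries were read in lane 1 and all WT and Zfp622 KO libraries in lane 2, per the file headers, so lane and genotype cannot be told apart in the Ttf1 comparisons within a stage. In pools of whole embryos, more RNA per cell and more cells that carry it cannot be told apart either.

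At morula, 9 of the 10 genes were higher in Ttf1 KO than in WT, against 21.3% of all 14865 genes tested that were called higher. The same 9 genes were higher in Zfp622 KO than in WT, against 15.6% of all genes tested. Bax was the gene not called in either KO. Both comparisons use the same 4 WT libraries. Bbc3 and Fas reached the minimum level for testing (0.685 CPM) in 0 of 4 WT libraries and were tested only because the KO libraries reached it, so that they had to differ. The other 8 genes reached it in every WT library, and 7 of these 8 were called higher in each KO. The libraries of KO and WT did not overlap for 10 genes in Ttf1 KO, against 19.1% of all genes tested. In Zfp622 KO they did not overlap for 9 genes, against 15.6%. Both counts include Bbc3 and Fas, which had to differ. Of the other 8 genes, only Bax in Zfp622 KO overlapped with WT.

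**Figure D1:**
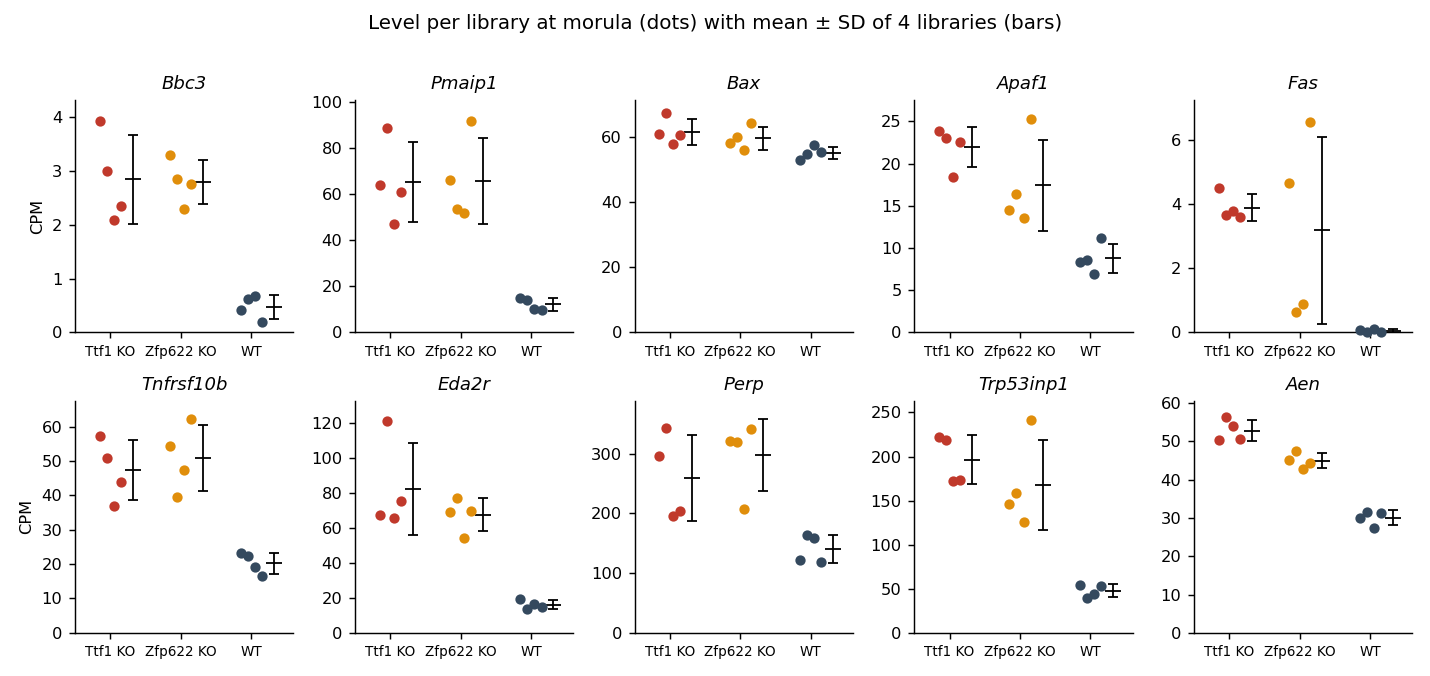
Level of each of the 10 genes at morula in CPM (vertical axes, from 0), with 1 dot per library and the mean ± SD of the 4 libraries of a group beside the dots. Ttf1 KO, Zfp622 KO and WT stand from left to right, and in every panel but that of Bax all 8 KO dots lie above all 4 WT dots.

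Bbc3 and Pmaip1 encode BH3-only proteins, the upstream triggers of mitochondrial cell death. Bbc3 (ENSMUSG00000002083; chromosome 7, 16308393 to 16318205, plus strand, build GRCm38) had the lowest mean level per kilobase in KO morulae, where its libraries overlapped with those of Fas. It was measured at 3.93, 3.01, 2.09 and 2.35 CPM in the 4 Ttf1 KO libraries and at 3.29, 2.86, 2.29 and 2.77 CPM in the 4 Zfp622 KO libraries, against 0.409, 0.617, 0.679 and 0.188 CPM in WT. Every KO library exceeded every WT library, and the WT values rest on 30 counts in all. In Ttf1 KO the log2 fold change was 2.56 (SE 0.34, adjusted p = 3.37e-05), and it was 2.54 (SE 0.34, adjusted p = 9.04e-05) in Zfp622 KO.

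Pmaip1 (ENSMUSG00000024521; chromosome 18, 66458533 to 66465565, plus strand) had 63.9, 88.5, 46.8 and 60.9 CPM in Ttf1 KO and 66.1, 53.3, 51.5 and 91.8 CPM in Zfp622 KO, against 14.8, 14, 10.1 and 9.46 CPM in WT. Even the lowest KO library exceeded the highest WT library, and the spread within each KO was larger than in WT. Its log2 fold change was 2.43 (SE 0.25, adjusted p = 2.48e-05) in Ttf1 KO and 2.45 (SE 0.25, adjusted p = 6.21e-05) in Zfp622 KO.

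Bax (ENSMUSG00000003873; chromosome 7, 45461697 to 45466898, minus strand), the pore-forming effector on which the BH3-only proteins converge, differed little. Its level was 61.0, 67.3, 57.9 and 60.6 CPM in Ttf1 KO and 58.3, 60.1, 55.9 and 64.2 CPM in Zfp622 KO, against 53, 54.7, 57.6 and 55.5 CPM in WT. The log2 fold change was 0.16 (95% interval -0.01 to 0.33, adjusted p = 0.116) in Ttf1 KO and 0.11 (95% interval -0.06 to 0.28, adjusted p = 0.309) in Zfp622 KO. These intervals do not reach the smallest called change among the 10 genes, 0.58 for Aen in Zfp622 KO. Bax shares 192 exonic bases, 12.2% of its exonic length, with Gm45808 on the same strand, and read pairs that fit both genes were not counted for either.

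Apaf1 (ENSMUSG00000019979; chromosome 10, 90989311 to 91082770, minus strand), the scaffold of the apoptosome, had 23.8, 23.0, 18.4 and 22.6 CPM in Ttf1 KO and 14.4, 16.4, 13.6 and 25.3 CPM in Zfp622 KO, against 8.38, 8.57, 6.90 and 11.2 CPM in WT. All KO libraries lay above WT, and library 4 of Zfp622 KO stood above the other 3 of its group. The log2 fold change was 1.33 (SE 0.19, adjusted p = 6.72e-05) in Ttf1 KO and 0.99 (SE 0.19, adjusted p = 0.00124) in Zfp622 KO. Caspase 9, which the apoptosome activates, went the other way: Casp9 was lower in Ttf1 KO (2.89 ± 0.88 CPM, against 5.02 ± 0.45 in WT, log2 fold change -0.79, adjusted p = 0.0187) and in Zfp622 KO (2.55 ± 0.83 CPM, log2 fold change -0.97, adjusted p = 0.00906).

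Of the 3 receptor genes, Tnfrsf10b and Eda2r were called higher in both KOs, and Fas was too, but it was tested only through the KO libraries. Fas (ENSMUSG00000024778; chromosome 19, 34290666 to 34327772, plus strand) had 71, 51, 56 and 55 counts in the Ttf1 KO libraries and 62, 8, 13 and 83 counts in the Zfp622 KO libraries, against 1, 0, 2 and 0 counts in WT. The WT morulae together were at the detection floor of 3 counts over the group. In Ttf1 KO its level was even, between 3.59 and 4.50 CPM, whereas in Zfp622 KO libraries 1 and 4 (4.64 and 6.56 CPM) stood apart from libraries 2 and 3 (0.618 and 0.874 CPM), a 10.6-fold range. Counts per total were 80.6 times as high in Ttf1 KO as in WT (95% interval 27.2 to 394) and 65.5 times as high in Zfp622 KO (22 to 321), with exact intervals for counting error only. The adjusted p was 0.0004 in Ttf1 KO and 0.00109 in Zfp622 KO, and in both comparisons Fas ranked 3 from the top among the fitted fold changes of 14865 genes. That rank depends on the few WT counts.

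Tnfrsf10b (ENSMUSG00000022074; chromosome 14, 69767472 to 69784411, plus strand), the mouse receptor for the death ligand TRAIL, had 57.3, 51.0, 37.0 and 44.0 CPM in Ttf1 KO and 54.5, 39.7, 47.5 and 62.1 CPM in Zfp622 KO, against 23.2, 22.4, 19.1 and 16.5 CPM in WT. The groups did not overlap. KO minus WT came to a log2 fold change of 1.22 (SE 0.16, adjusted p = 3.50e-05) in Ttf1 KO and 1.33 (SE 0.16, adjusted p = 4.72e-05) in Zfp622 KO.

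Eda2r (ENSMUSG00000034457; chromosome X, 97333840 to 97377216, minus strand), a receptor for the A2 form of ectodysplasin, had 67.5, 121, 65.5 and 75.7 CPM in Ttf1 KO and 69.4, 76.9, 54.5 and 69.7 CPM in Zfp622 KO, against 19.6, 13.9, 16.5 and 14.7 CPM in WT. Library 2 of Ttf1 KO was the highest, and the lowest KO library was still well above the highest WT library. The log2 fold change was 2.35 (SE 0.20, adjusted p = 4.50e-06) in Ttf1 KO and 2.06 (SE 0.20, adjusted p = 2.61e-05) in Zfp622 KO.

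The ligands of these receptors, with the adaptor of Fas and caspase 8, were looked up as partners, outside the rule for naming genes. Fasl had 3 and 5 counts in all Ttf1 KO and Zfp622 KO morula libraries together, against 2 in WT, and Tnfsf10, the TRAIL gene, had 1 and 6, against 3 in WT. Casp8 had 0 and 3 counts, against 3 in WT. None of these could be tested. Fadd, the adaptor that joins Fas to caspase 8, was measured at 7.46 ± 1.21 CPM in Ttf1 KO and 8.47 ± 0.97 in Zfp622 KO, against 7.46 ± 1.10 in WT, and was not called (adjusted p = 0.993 and 0.432). Eda, the gene of ectodysplasin, was measured at 29.8 ± 7.28 and 29.1 ± 2.26 CPM, against 35.7 ± 4.31 in WT, and was not called (adjusted p = 0.174 and 0.146).

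Perp (ENSMUSG00000019851; chromosome 10, 18845020 to 18857073, plus strand), a membrane protein of desmosomes that p53 induces in dying cells, was the most abundant of the 10 per kilobase at morula. It had 295, 342, 196 and 203 CPM in Ttf1 KO and 320.2, 320.0, 208 and 342 CPM in Zfp622 KO, against 122, 164, 159 and 119 CPM in WT. All KO libraries were above the highest WT library, and 3 of the 4 Zfp622 KO libraries lay close together with library 3 below them. Perp thus had a log2 fold change of 0.88 (SE 0.21, adjusted p = 0.00768) in Ttf1 KO and 1.08 (SE 0.21, adjusted p = 0.00384) in Zfp622 KO. The headers of WT libraries 3 and 4 carry a second number whose meaning is not stated. Without these libraries the Ttf1 KO value was 0.85 with adjusted p = 0.0595.

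Trp53inp1 (ENSMUSG00000028211; chromosome 4, 11156431 to 11174379, plus strand), a nuclear protein that aids phosphorylation of p53 and takes part in autophagy, had 222, 219, 172 and 173 CPM in Ttf1 KO and 146, 158, 125 and 241 CPM in Zfp622 KO, against 54.7, 39.7, 43.9 and 52.9 CPM in WT. The lowest KO library was above every WT library. Its log2 fold change was 2.04 (SE 0.19, adjusted p = 1.70e-05) in Ttf1 KO and 1.81 (SE 0.19, adjusted p = 8.36e-05) in Zfp622 KO.

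Aen (ENSMUSG00000030609; chromosome 7, 78895854 to 78911209, plus strand), the apoptosis-enhancing nuclease that cuts DNA in dying cells, had the smallest called change among the 10 genes. Its level was 50.4, 56.3, 53.9 and 50.7 CPM in Ttf1 KO and 45.2, 47.4, 42.7 and 44.3 CPM in Zfp622 KO, against 30.0, 31.5, 27.4 and 31.3 CPM in WT. The 3 groups did not overlap, with Ttf1 KO highest and WT lowest, and between the KOs 3.29% of all genes tested were likewise higher in every Ttf1 KO library. For Aen the log2 fold change was 0.81 (SE 0.08, adjusted p = 5.20e-06) in Ttf1 KO and 0.58 (SE 0.08, adjusted p = 0.000148) in Zfp622 KO.

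Promoter windows, from 250 bases before to 50 bases after a start site, were taken from RefSeq (build GRCm38.p6) for 6 of the 10 genes, Bbc3, Bax, Apaf1, Fas, Eda2r and Aen, which have 9 windows in all. They were searched on both strands for the p53 half-site consensus, a string of 10 bases, and for a pair of its 4-base cores (CNNG with A or T at both middle bases) with 6 bases between them. A half-site holds 1 core, so matches can overlap. Of all 32851 windows in the table, 8.36% held a half-site and 7.22% a core pair. The genes with a match are Bbc3, Aen and Bax, and 1 window of each is shown because Bbc3 and Aen were called at morula and Bax was not. Capitals mark the matched bases. The first of 3 Bbc3 windows (chr7:16309333-16309632, plus strand) holds a core pair that begins 94 bases before the start, the second of 2 Aen windows (chr7:78895808-78896107, plus strand) a half-site from 121 bases and a core pair from 118 bases before it, and the Bax window (chr7:45466849-45467148, minus strand) a half-site from 201 bases before it.
Bbc3: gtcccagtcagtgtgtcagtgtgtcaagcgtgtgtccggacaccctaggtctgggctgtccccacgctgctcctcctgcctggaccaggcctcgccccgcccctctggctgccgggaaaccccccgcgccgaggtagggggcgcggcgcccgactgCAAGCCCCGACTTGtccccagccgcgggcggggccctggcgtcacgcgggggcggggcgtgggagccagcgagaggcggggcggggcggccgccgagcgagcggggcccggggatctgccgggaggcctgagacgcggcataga
Aen: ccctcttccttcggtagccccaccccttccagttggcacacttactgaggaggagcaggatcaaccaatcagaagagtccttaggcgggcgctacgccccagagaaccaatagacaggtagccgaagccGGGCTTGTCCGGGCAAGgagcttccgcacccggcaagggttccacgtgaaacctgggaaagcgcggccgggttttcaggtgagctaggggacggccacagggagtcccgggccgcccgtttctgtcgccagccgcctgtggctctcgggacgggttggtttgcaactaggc
Bax: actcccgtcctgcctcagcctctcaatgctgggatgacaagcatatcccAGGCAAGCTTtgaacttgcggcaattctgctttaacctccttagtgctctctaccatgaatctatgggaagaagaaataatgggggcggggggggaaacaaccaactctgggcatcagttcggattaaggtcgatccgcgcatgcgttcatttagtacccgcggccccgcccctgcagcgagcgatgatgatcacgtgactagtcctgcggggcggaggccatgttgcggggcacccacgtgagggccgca
The windows of Apaf1, Fas and Eda2r held neither match, and Apaf1, Fas and Eda2r were called higher in both KOs. A match is a string of letters and says nothing of binding in these embryos.

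The 2 KOs did not differ from each other at morula in any of the 10 genes in edgeR, against 0.229% of all genes tested that were called. At an unadjusted p under 0.05 there was 1 gene, Aen, with a log2 difference of 0.24 between Ttf1 KO and Zfp622 KO (95% interval 0.06 to 0.41, adjusted p = 0.227), and DESeq2 called 0. The interval ran from -0.58 to 0.63 for Bbc3, from -0.51 to 0.48 for Pmaip1, from -0.12 to 0.21 for Bax, from -0.05 to 0.72 for Apaf1 and from -0.93 to 1.53 for Fas. It ran from -0.43 to 0.22 for Tnfrsf10b, from -0.11 to 0.68 for Eda2r, from -0.67 to 0.27 for Perp and from -0.17 to 0.63 for Trp53inp1. Differences between the KOs within these intervals could not be told from 0.

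The libraries of Zfp622 KO morulae differed among themselves in a way shared by most of the 10 genes. Library 4 was the highest of its group for 7 of the 10 genes (Pmaip1, Bax, Apaf1, Fas, Tnfrsf10b, Perp and Trp53inp1), and library 3 was the lowest for 8. Library 4 also held the least Zfp622 transcript, 6.09 CPM, and library 3 the most, 19.9 CPM, with 17.6 and 17 CPM in libraries 1 and 2. No relation between these levels was tested. In Ttf1 KO morulae library 3 was the lowest for 8 genes, and the Ttf1 level was even (24.6, 27.2, 23.9 and 25.9 CPM). For neither KO was the share of all genes with the same highest or lowest library counted. Whether these orders are particular to the 10 genes was thus not tested.

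**Figure D2:**
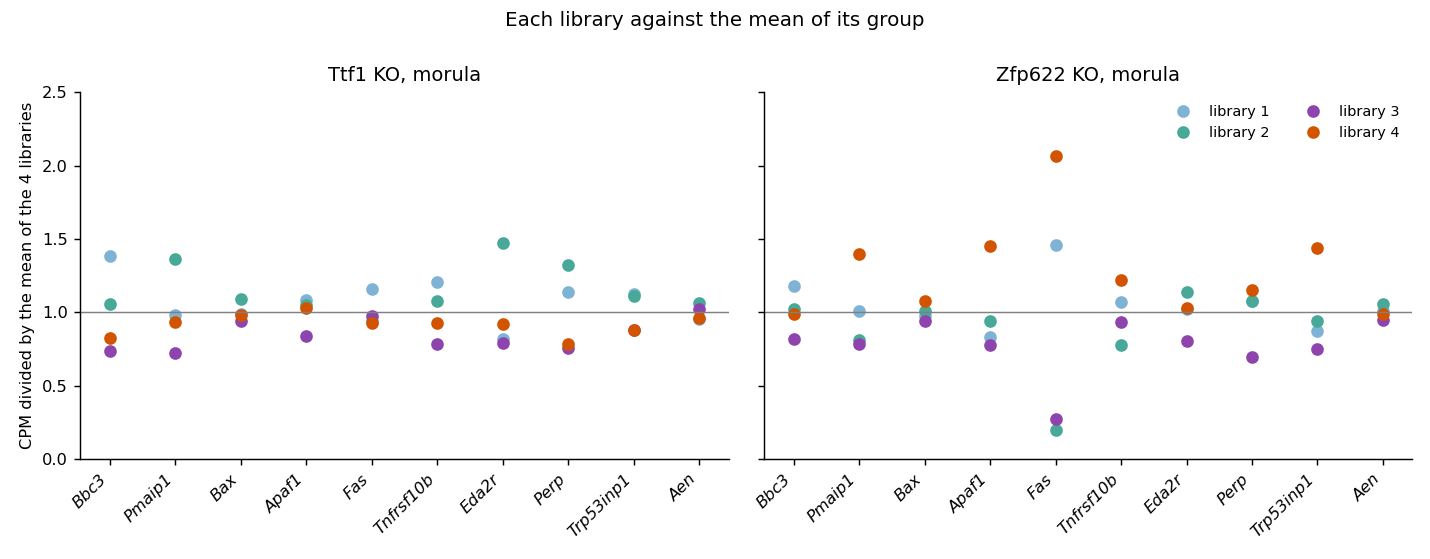
CPM of each library divided by the mean of its group (vertical axis, no unit) for the 10 genes at morula, with Ttf1 KO on the left and Zfp622 KO on the right and 1 colour per library. The 4 libraries lie close to 1 for Bax and Aen in both KOs, and Fas in Zfp622 KO spreads most, with library 4 at 2.07 and library 2 at 0.195.

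At morula the other p53 targets were mostly higher in the KOs, while the regulators of p53 and the rest of the death machinery went both ways. The lists below were chosen with earlier results of these data known. Trp53, the p53 gene itself and named for that outside the rule, was measured at 165 ± 14.7 CPM in Ttf1 KO and 163 ± 12.8 in Zfp622 KO, against 132 ± 7.03 in WT, and was called higher in both (log2 fold change 0.32 and 0.30, adjusted p = 0.00488 and 0.00985). Of all genes tested at morula, 21.3% were called higher and 17.9% lower in Ttf1 KO, and 15.6% higher and 13.5% lower in Zfp622 KO. Of 18 tested genes for p53 and its regulators, 6 were higher and 2 lower in Ttf1 KO, with a median log2 fold change of 0.29, and 5 were higher and 3 lower in Zfp622 KO, with a median of 0.02. The median over all genes tested was 0.04 in Ttf1 KO and 0.03 in Zfp622 KO. Mdm2, the gene of the enzyme that destroys p53 and itself a p53 target, was at 201 ± 28.3 CPM in Ttf1 KO and 169 ± 48.9 in Zfp622 KO, against 61.3 ± 5.96 in WT (log2 fold change 1.72 and 1.47). The phosphatase gene Ppm1d was higher in both (1.08 and 0.96), as were the ribosomal protein gene Rpl5 (0.27 and 0.21) and Mdm4, which binds and restrains p53 (0.63 and 0.57). The acetyltransferase gene Kat5 (-0.46 and -0.39) and Trp53bp2 (-0.67 and -0.71) were lower in both, and the kinase gene Atm was lower in Zfp622 KO (-0.27), with 0.02 (adjusted p = 0.888) in Ttf1 KO.

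Of 36 other p53 targets 33 were tested, of which 24 were higher and 3 lower in Ttf1 KO, and 26 were higher and 1 lower in Zfp622 KO. The median log2 fold change of this list was 0.96 in Ttf1 KO and 0.99 in Zfp622 KO. Among the smallest p-values were Sesn2, a stress-induced inhibitor of growth signalling (21.1 ± 2.88 CPM in Ttf1 KO and 18.2 ± 4.67 in Zfp622 KO, against 7.10 ± 0.35 in WT), and Ddit4, which acts in the same signalling (10.4 ± 2.07 CPM in Ttf1 KO and 11.5 ± 1.84 in Zfp622 KO, against 3.17 ± 0.43 in WT). Dcxr, a sugar reductase gene, stood at 33.6 ± 6.68 CPM in Ttf1 KO and 33.4 ± 7.64 in Zfp622 KO, against 9.82 ± 1.47 in WT. Cdkn1a, the p21 inhibitor of the cell cycle, stood at 319 ± 69.5 CPM in Ttf1 KO and 298 ± 69.7 in Zfp622 KO, against 51.5 ± 9.34 in WT. The damage recognition gene Ddb2 was lower in both KOs (-0.90 and -0.69), and Tigar (-0.42) and the repair gene Xpc (-0.72) were lower in Ttf1 KO, with -0.20 (adjusted p = 0.113) and -0.33 (adjusted p = 0.163) in Zfp622 KO.

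Of 35 other genes of the death machinery 27 were tested, and they went both ways. In Ttf1 KO 5 were higher and 7 lower, with a median log2 fold change of -0.06, and in Zfp622 KO 3 were higher and 4 lower, with a median of 0.13. Of the protectors, Mcl1, which holds Bbc3 and Pmaip1 in check, was higher at 165 ± 10.6 CPM in Ttf1 KO and 149 ± 7.67 in Zfp622 KO, against 127 ± 1.24 in WT (log2 fold change 0.38 and 0.24). Bcl2l1, named outside the rule as the gene of another protector, was not called (-0.28 and -0.17, adjusted p = 0.133 and 0.381). Bcl2 had 4 and 2 counts, against 1 in WT, and Bak1, the other pore-forming effector beside Bax, had 0 and 1 counts, against 2 in WT, and neither was tested. Birc5 (-0.39 and -0.38) and Birc3 (-0.57 and -0.60), of the family of inhibitors of apoptosis, were lower in both KOs. Cflar, an inhibitor of caspase 8, was higher in Ttf1 KO (0.94), with 0.48 (adjusted p = 0.0532) in Zfp622 KO. Cycs, the cytochrome c gene, was higher (0.26 and 0.23) and the caspase gene Casp6 lower (-0.36 and -0.82) in both KOs. Bad was higher in Zfp622 KO (0.31), with 0.11 (adjusted p = 0.391) in Ttf1 KO. Atm, Tigar, Xpc, Cflar and Bad, called in 1 KO each, are not thereby shown to differ between the KOs.

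Markers of stage and of other cells moved with the KOs too. The 8 morula markers summed to 617 to 802 CPM in Ttf1 KO and 621 to 1022 CPM in Zfp622 KO, against 1207 to 1304 CPM in WT, with 1 higher and 5 lower in Ttf1 KO and 1 higher and 3 lower in Zfp622 KO. The 6 late 2-cell markers summed to 17.2 to 67.6 and 26.6 to 38.9 CPM, against 6.08 to 28.8 in WT, with 2 and 1 higher. The 7 markers of oocyte remnants and polar bodies summed to 34.1 to 41.4 and 30.8 to 46.6 CPM, against 11.9 to 17.1 in WT, with 5 higher in each KO. The 11 blood markers summed to 21.6 to 35.7 and 26.6 to 37.2 CPM, against 9.60 to 13.2 in WT. Most of it was Cd68 (18.2 and 23.7 CPM, against 9.60 in WT), and Hba-a1 came second (6.70 and 5.64 CPM, against 1.615 in WT). Fcer1g, Hbb-bt, S100a8 and S100a9 were at 0 in all 3 groups. Of the blood markers 2 and of the sperm markers 1 could be tested, and all were called higher in each KO. The 13 cumulus and granulosa markers summed to between 0.0673 and 0.507 CPM and between 0.386 and 1.12 CPM, against 0.0566 to 0.206 in WT, and the 8 sperm markers between 0.444 and 1.65 CPM and between 0.599 and 1.85 CPM, against 0.411 to 0.509 in WT, each sum over the whole list. Of the cumulus and granulosa markers 0 could be tested. Their part in the results was not tested.

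At L2C, none of the 10 genes was called in either KO. In Ttf1 KO 0 of the 8 genes tested were called by edgeR, against 1.54% of all 16770 genes tested, while 4 lay higher and 1 lower with an unadjusted p under 0.05, against 2676 of the 16770 genes in either direction. In Zfp622 KO 0 of 8 were called, against 0.0179% of all genes tested, with 3 above and 1 below WT where unadjusted p was under 0.05, against 1079 of the 16770. Bbc3 and Eda2r reached the minimum level for testing at L2C (0.861 CPM) in 2 of 4 WT libraries. The other 6 genes tested reached it in every WT library. DESeq2 called 1 gene in Ttf1 KO, Aen, and 0 in Zfp622 KO. Fas and Perp were too low to be tested, with 0, 1 and 1 counts of Fas and 22, 32 and 31 counts of Perp in all Ttf1 KO, Zfp622 KO and WT L2C libraries. WT L2C library 4, whose header also carries a second number, was the lowest of its group for 7 of the 10 genes. The share over all genes was not counted. Without it the Ttf1 KO log2 fold change went from 0.41 to 0.29 for Bax and from 0.48 to 0.33 for Tnfrsf10b. It went from 0.72 to 0.47 for Eda2r, from 0.58 to 0.41 for Bbc3 and from -0.44 to -0.51 for Pmaip1, and 0 genes were called.

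**Figure D3:**
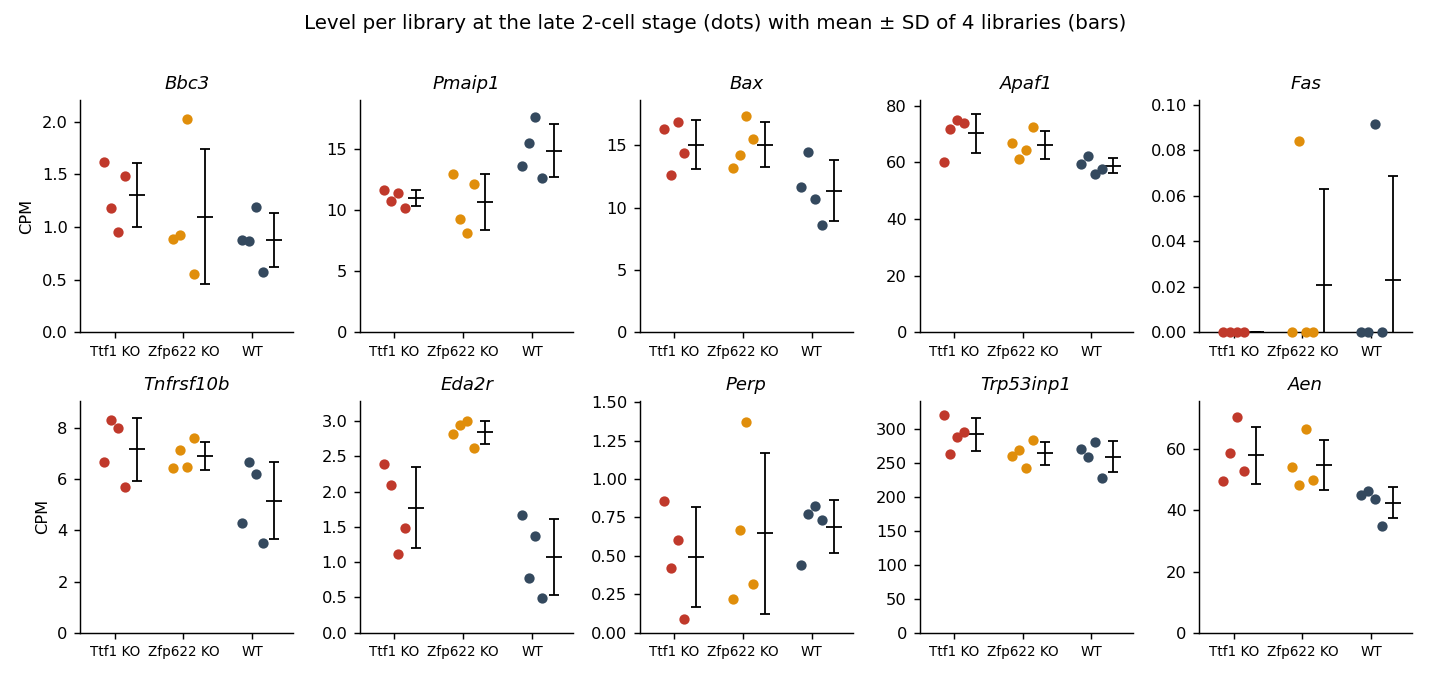
Level of each of the 10 genes at L2C in CPM (vertical axes, from 0), with 1 dot per library and the mean ± SD of the 4 libraries of a group beside the dots. The KO and WT dots overlap in most panels, Aen in both KOs and Eda2r in Zfp622 KO lie above WT, Pmaip1 in Ttf1 KO lies below WT, and the Fas panel holds a single count in 1 Zfp622 KO and in 1 WT library.

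Aen was closest to a call in Ttf1 KO. It had 49.6, 58.8, 70.5 and 53 CPM in Ttf1 KO and 54.2, 48.4, 66.7 and 50.0 CPM in Zfp622 KO, against 45, 46.4, 43.8 and 35.0 CPM in WT. Every KO library lay above WT, as for 4.87% of all genes tested in Ttf1 KO and 1.65% in Zfp622 KO. The log2 fold change was 0.45 (SE 0.13, adjusted p = 0.092) in Ttf1 KO and 0.37 (SE 0.13, adjusted p = 0.690) in Zfp622 KO. In Ttf1 KO it passed with DESeq2 (adjusted p = 0.0357), without the filter on low counts (0.020) and in a fit on all 24 libraries (0.0315). It stayed uncalled under 14 of 17 alternatives, with adjusted p up to 0.272.

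Eda2r had 2.38, 2.10, 1.12 and 1.48 CPM in Ttf1 KO and 2.81, 2.94, 2.99 and 2.61 CPM in Zfp622 KO, against 1.66, 0.772, 1.37 and 0.488 CPM in WT. The Zfp622 KO libraries lay above WT and above Ttf1 KO, and Ttf1 KO lay wholly below Zfp622 KO for 2.42% of all genes tested. Its log2 fold change in Zfp622 KO was 1.40 (SE 0.36), with an unadjusted p of 0.00102 in the fit across all genes and an adjusted p of 0.513. In Ttf1 KO it was 0.72 (SE 0.38, adjusted p = 0.361). Eda2r reached the minimum level for testing in 2 of 4 WT libraries and in 4 of 4 libraries of each KO. It was thus tested through the KO libraries, and the filter itself favoured a higher KO level.

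Pmaip1 pointed the other way from morula. It had 11.6, 10.8, 11.4 and 10.2 CPM in Ttf1 KO and 13, 9.31, 8.16 and 12.1 CPM in Zfp622 KO, against 13.7, 15.5, 17.7 and 12.7 CPM in WT. The Ttf1 KO libraries lay below WT, as for 5.07% of all genes tested, and 1 Zfp622 KO library lay within the WT range. The log2 fold change was -0.44 (SE 0.17, adjusted p = 0.216) in Ttf1 KO and -0.48 (SE 0.17, adjusted p = 0.690) in Zfp622 KO.

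The other 5 genes tested at L2C overlapped between KO and WT. Their log2 fold changes in Ttf1 KO and in Zfp622 KO were 0.58 and 0.32 for Bbc3, 0.41 and 0.41 for Bax, 0.26 and 0.17 for Apaf1, 0.48 and 0.42 for Tnfrsf10b and 0.17 and 0.03 for Trp53inp1. Their adjusted p-values were between 0.201 for Apaf1 in Ttf1 KO and 0.981 for Trp53inp1 in Zfp622 KO. For Bax, whose intervals ran from 0.05 to 0.77 in both KOs, the L2C estimate was above the one at morula. Between the KOs at L2C 0 of 8 genes were called in edgeR, against 0.0358% of all genes tested, with 0 at an unadjusted p under 0.05 and 0 in DESeq2. Of the other pathway genes, 1 was called at L2C: Bcl2l10, an oocyte protector of the Bcl2 family, at 196 ± 12.6 CPM in Ttf1 KO, against 301 ± 44.3 in WT (log2 fold change -0.62, adjusted p = 0.0223). Of the markers, 1 of 7 for oocyte remnants was lower in each KO and none of the other lists had a call.

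**Figure D4:**
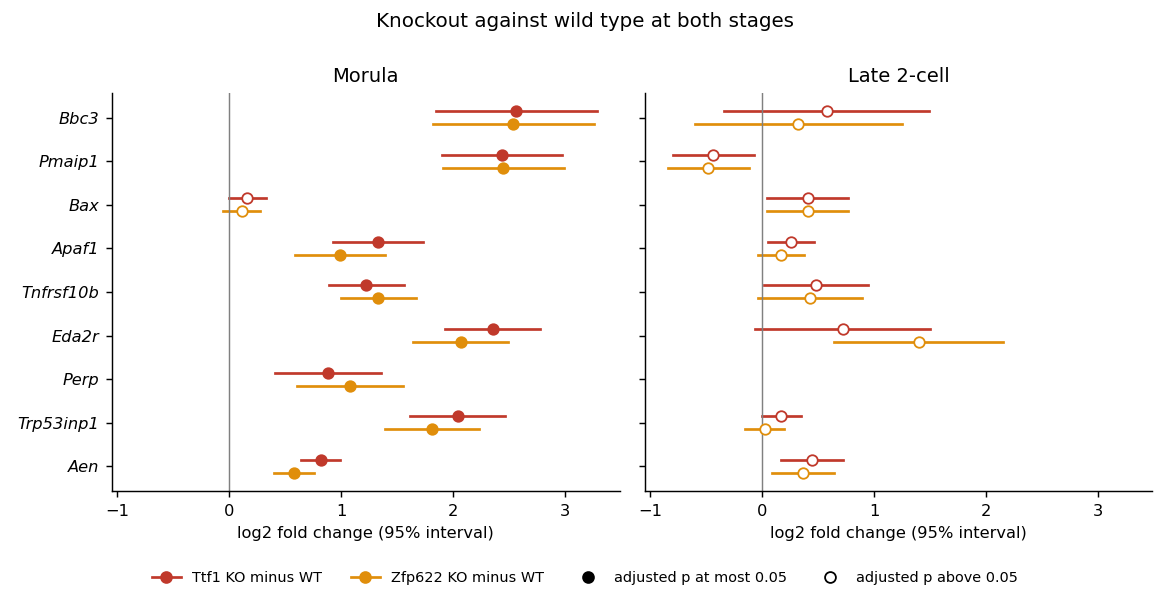
Log2 fold change of KO minus WT (horizontal axis) with its 95% interval for 9 of the genes, at morula on the left and at L2C on the right, where a filled dot is a call. Fas is left out because its WT counts are at the floor, and Perp was not tested at L2C. All morula dots but those of Bax are filled, and all L2C dots are open.

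The question whether the KO effect differed between the stages was tested as an interaction in a fit on all 24 libraries. In Ttf1 KO 6 of the 10 genes were called with a larger log2 fold change at morula than at L2C, against 12.5% of all 18864 genes tested. In Zfp622 KO 5 were so called, against 6.45%. Both counts include Bbc3, which was tested at morula alone only through the KO libraries. In the fit on all 24 libraries it reached the minimum level (0.777 CPM) in 0 of 4 WT morula and 3 of 4 WT L2C libraries. Pmaip1 changed most: the difference between the stages was 2.86 in Ttf1 KO (SE 0.28, adjusted p = 1.87e-07) and 2.91 in Zfp622 KO (SE 0.28, adjusted p = 4.38e-07). Bbc3 followed with 1.98 (adjusted p = 0.0112) and 2.2 (adjusted p = 0.0110), and Trp53inp1 with 1.86 (adjusted p = 1.27e-06) and 1.77 (adjusted p = 7.19e-06). Apaf1 had 1.07 (adjusted p = 0.000671) and 0.81 (adjusted p = 0.0142). For these 4 genes the effect was larger at morula in both KOs.

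Tnfrsf10b had a difference of 0.73 in Ttf1 KO (adjusted p = 0.0465) and 0.89 in Zfp622 KO (adjusted p = 0.0279), and Eda2r one of 1.62 in Ttf1 KO (adjusted p = 0.0051) and 0.65 in Zfp622 KO (adjusted p = 0.302). The call of Tnfrsf10b was lost under many alternatives, with adjusted p up to 0.126 in Ttf1 KO and 0.0809 in Zfp622 KO. Without library 4 of Zfp622 KO morulae, 3 genes were called in Zfp622 KO, and Apaf1 had 0.57 with adjusted p = 0.0541. Aen (0.36 and 0.20), Bax (-0.26 and -0.31) and Perp (1.37 and 1.18) were not called. Fas is given no value here, since its counts at L2C are at or under the floor in every group.

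In WT embryos the 10 genes did not share a direction between the stages. Levels across stages are CPM per kilobase of exon, scaled over all 24 libraries. In WT morulae against WT L2C 4 genes were higher and 2 lower, all 6 with no overlap between the stages. Of all 18864 genes tested, 36.2% lay wholly higher and 43.6% wholly lower in WT morulae, and 84% were called (37.9% higher and 46.1% lower). The median log2 fold change of all genes was -0.30. A scale from total counts alone moved that median to -0.87, and DESeq2 size factors to -0.40. Perp was at 74.1 to 102 CPM per kilobase in WT morulae and at 0.184 to 0.344 in WT L2C (log2 fold change 8.24, adjusted p = 1.16e-15). Perp reached the minimum level for testing (0.777 CPM) in 1 of 4 WT L2C libraries and was tested through the morula libraries, so that it had to differ. Bax was at 41.3 to 45.9 in WT morulae and 4.44 to 7.51 in WT L2C (2.87, adjusted p = 1.81e-18).

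The receptor genes Eda2r (2.84 to 4.09 CPM per kilobase in WT morulae and 0.0673 to 0.231 in WT L2C, log2 fold change 4.50) and Tnfrsf10b (3.68 to 5.22 and 0.521 to 0.999, log2 fold change 2.57) were higher in morulae too. Eda2r reached the minimum level for testing (0.777 CPM) in 2 of 4 WT L2C libraries and in 4 of 4 WT morula libraries. Apaf1 was lower, at 0.960 to 1.51 CPM per kilobase in WT morulae and 5.07 to 5.65 in WT L2C (-2.16, adjusted p = 1.53e-13). Trp53inp1 was lower as well, at 7.39 to 10.4 in WT morulae and 28.6 to 35.4 in WT L2C (-1.85, adjusted p = 1.32e-11). Pmaip1 (0.28, adjusted p = 0.189), Bbc3 (-0.28, adjusted p = 0.549) and Aen (0.09, adjusted p = 0.485) were not called, and Aen was lower by -0.49 (adjusted p = 0.000505) when counts were scaled by totals alone.

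**Figure D5:**
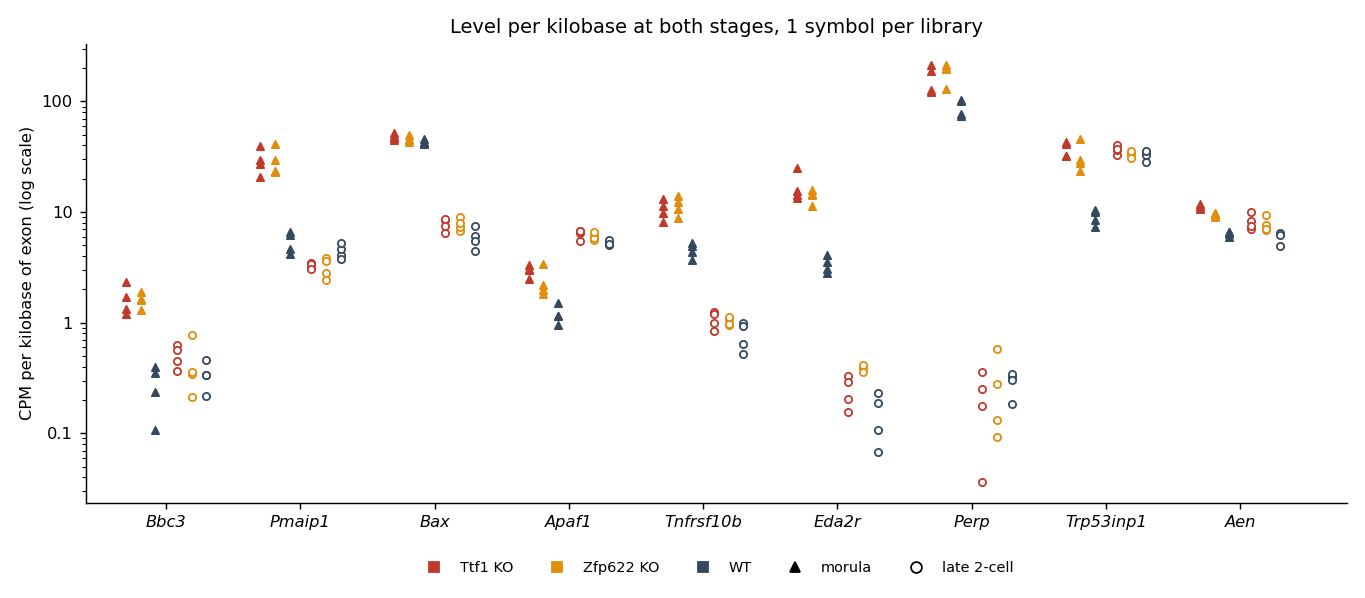
Level per kilobase of exon (vertical axis, log scale) of 9 of the genes in every library, with morula as filled triangles left of L2C as open circles and Ttf1 KO, Zfp622 KO and WT from left to right within each stage. Fas is left out because many of its libraries are at 0. The WT triangles of Apaf1 and Trp53inp1 lie below all circles of the same gene, and those of Perp, Bax, Eda2r and Tnfrsf10b above.

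Trp53inp1 in KO morulae stood near its level in L2C. It was at 37.1 ± 5.61 CPM per kilobase in Ttf1 KO and 31.6 ± 9.64 in Zfp622 KO morulae, against 9.06 ± 1.37 in WT morulae, and at 32.7 ± 2.95 in WT L2C. With unscaled totals these were 30.0, 26.1, 7.37 and 39.6 CPM per kilobase. Apaf1 in KO morulae stayed below L2C, at 2.97 ± 0.36 and 2.35 ± 0.73 CPM per kilobase, against 1.19 ± 0.23 in WT morulae and 5.32 ± 0.26 in WT L2C. KO morulae were not tested against WT L2C.

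The order of the 10 genes by level per kilobase also differed between KO and WT morulae. In Ttf1 KO morulae it was Perp (162 CPM per kilobase), Bax (47.8), Trp53inp1 (37.1), Pmaip1 (29.1), Eda2r (17.1), Aen (11.1), Tnfrsf10b (10.6), Apaf1 (2.97), Fas (2.30) and Bbc3 (1.64). The libraries of Trp53inp1 and Pmaip1, of Pmaip1 and Eda2r, of Aen and Tnfrsf10b, of Apaf1 and Fas and of Fas and Bbc3 overlapped, so these neighbours do not differ beyond their spread. In Zfp622 KO morulae the order was the same but that Tnfrsf10b (11.4) came before Aen (9.43). There Bax overlapped with Trp53inp1 and Eda2r with Tnfrsf10b, while Pmaip1 and Eda2r did not overlap. In WT morulae Perp (88.6), Bax (43.0) and Trp53inp1 (9.06) led and did not overlap, Aen (6.35), Pmaip1 (5.42), Tnfrsf10b (4.57) and Eda2r (3.37) followed with overlap between neighbours, and Apaf1 (1.19), Bbc3 (0.274) and Fas (0.0274) came last without overlap. At L2C Trp53inp1 was the highest in all 3 groups (36.8, 33.3 and 32.7 in Ttf1 KO, Zfp622 KO and WT) and Fas the lowest. The order was the same with unscaled totals in each of the 6 groups.

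The genes whose log2 CPM followed that of each member most closely over the 24 libraries are given as a description. These libraries fall into 2 stages and differ in depth and lane. Pearson's r was 0.975 with Plk2 for Pmaip1, 0.994 with Uqcrb for Bax, 0.988 with Dhx16 for Tnfrsf10b and 0.987 with Nme4 for Eda2r. It was 0.995 with Rpl7 for Perp, 0.977 with Micall1 for Apaf1, 0.965 with Hormad1 for Trp53inp1 and 0.886 with Fam168a for Aen. Bbc3 and Fas were left out because their mean was below 5 CPM in every group.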

How the data were processed

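Messenger RNA was counted in 24 libraries of pooled mouse embryos. The deposited values are counts of read pairs per gene: paired reads of 150 bases were placed by HISAT2 2.2.1, per the submitters' processing notes, and assigned to exons by gene with featureCounts 2.0.1 on Ensembl release 99 (GRCm38), per the file headers, with no strand option and without pairs that fit several places or genes. The labels also name mm10. Symbols were matched for 55144 of 55471 genes. Groups came from the sample titles, since the Zfp622 genotype labels run up in number and 7 name other genes. The strain labels of these libraries run up in number too.

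Genes were kept by filterByExpr (minimum count 10) of edgeR 4.0.16 in R 4.3.3, scaled by TMM and tested with robust quasi-likelihood fits, on the 12 libraries of a stage or, across stages and for interactions, on all 24. P-values were adjusted by Benjamini-Hochberg over all genes tested and called at 0.05. Fold changes use a prior count of 0.125, and 95% intervals the fit's own errors. The spread behind the p-values is that between libraries, separate pools per the labels. Alternatives were DESeq2 1.42.0, its size factors, library totals alone, all genes unfiltered, a replicate block, a fit that is not robust, other sets of libraries, and each library left out. The procedure was tested on simulated data. The 10 genes and the lists were chosen with earlier results of these data known. The text names all 10, both targets, from each of 3 lists up to 3 called genes a direction and KO at morula and every gene called at L2C, and the closest patterns. One result under this rule is not reported here.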

Additional observations from a re-analysis of the deposited data

Results flagged for a closer look

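Perp in Zfp622 KO morulae had 1 library apart from the other 3: library 3 at 208 CPM, against 320.0 to 342 CPM in the others. It was 1 of 68 groups of 4 looked at, and chance marks about 1 group in 20.

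The effect of Ttf1 KO at morula differed from that at L2C, in the edgeR interaction test, for 6 genes: Bbc3 (1.98 on the log2 scale), Pmaip1 (2.86), Tnfrsf10b (0.73), Eda2r (1.62), Apaf1 (1.07) and Trp53inp1 (1.86). The effect of Zfp622 KO differed between the stages for 5 genes: Bbc3 (2.2), Pmaip1 (2.91), Tnfrsf10b (0.89), Apaf1 (0.81) and Trp53inp1 (1.77). The 2 tests share the WT libraries of both stages. The call of Tnfrsf10b was lost under 14 of 24 alternatives in Ttf1 KO and 7 of 24 in Zfp622 KO. That of Apaf1 was lost under 1 of 24 in Zfp622 KO.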

How the results depend on the processing

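Of 1467 values of single genes under the alternatives, 1436 kept their direction and their side of the threshold, 23 lost the call, 7 gained one and 1 reversed, the change of Aen between WT morulae and WT L2C with total counts only (-0.49). Of 164 counts of genes called, 160 stayed within 1.5 times the reported count. The count in Ttf1 KO at L2C was 1 in place of 0 under DESeq2, without the filter and in a fit on all 24 libraries, and the Zfp622 interaction count was 3 without library 4 of Zfp622 KO morulae. With each library left out in turn, the counts ran from 9 to 9 in both KOs at morula, from 0 to 0 at L2C, from 6 to 6 between WT stages, from 5 to 7 for the Ttf1 interaction and from 3 to 5 for the Zfp622 interaction. Replicate numbers did not pair the libraries: after group means were removed, same-numbered libraries correlated between -0.198 and 0.104 over 24 pairs, and a library correlated best with its own number in 9 of 48 comparisons with another group. With the replicate block 9 genes were called in each KO at morula, 0 at L2C, 6 between WT stages and 5 in each interaction, and the block changed no call but that of Tnfrsf10b in the Ttf1 interaction (0.73, adjusted p = 0.0569). Fas was not tested when Zfp622 KO and WT morulae were fitted alone, which left 8 calls. The causes were not tested. Depth limits Bbc3 and Fas in WT morulae (30 and 3 counts) and Perp and Fas at L2C.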
